A study of Homo sapiens with 2 samples.

Results

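The mitochondrial respiratory chain was described through its nuclear-encoded subunits, taken as every probe set that names 1 protein-coding gene whose symbol begins with NDUFA, NDUFB, NDUFC, NDUFS, NDUFV, SDHA to SDHD, UQCR, COX4 to COX8 or ATP5, together with CYC1 and CYCS. Assembly factors, antisense and readthrough transcripts and pseudogenes were left out, and COXFA4 and COXFA4L2 were kept because RefSeq lists NDUFA4 and NDUFA4L2 as their older names. This gave 81 genes read by 157 probe sets, of 19777 genes and 41091 probe sets that name 1 gene. Of the 81 genes, 33 belong to complex I, 3 to complex II, 7 to complex III, 19 to complex IV and 18 to complex V, and 1 encodes cytochrome c. The subunit genes SDHB and UQCRFS1 were not analysed here, and NDUFS5, NDUFS8, NDUFC2 and UQCRH, read only together with other genes, entered no count.

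The samples came from HT-29, an established human line of colorectal adenocarcinoma. The cells of 1 sample had been transfected with a small interfering RNA (siRNA) against IFITM1, an interferon-induced membrane protein (siIFITM1). Those of the other had received an siRNA against firefly luciferase, a gene these cells lack (siLuc), and total RNA was taken 72 h after transfection in both. The line, the transfection and the time were thus shared. The study asked what knockdown of IFITM1 does to expression in these cells, and there was 1 array per siRNA, so no spread between samples was measured and no difference could be tested.

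The respiratory chain sits in the inner mitochondrial membrane. Complexes I and II pass electrons from NADH and succinate to ubiquinone, complex III passes them on to cytochrome c, and complex IV passes them to oxygen. Complexes I, III and IV pump protons, and complex V, the ATP synthase, uses the proton gradient to make ATP. Most subunits are encoded in the nucleus and are needed in fixed proportions, and many of their promoters are known targets of the transcription factors NRF1, GABP (which binds the ETS word) and YY1. Colorectal cancer lines use both glycolysis and oxidative phosphorylation.

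The promoter windows of 3 subunit genes with low log2 ratios (NDUFB10, NDUFA7, NDUFS7) and of the 2 with the highest (ATP5ME, NDUFS1) are shown so that the factor-binding words can be read beside the values that follow. A window holds 250 bases before and 50 bases after the annotated gene start, from RefSeq on GRCh38.p14, written 5′ to 3′ on the gene's strand. Capitals mark an NRF1 word (GCATGCGC), an ETS word (CCGGAAG) or a YY1 word (AAGATGGCG), each sought on both strands. The windows are chr16:1959288-1959587 on the plus strand for NDUFB10, chr19:8321326-8321625 on the minus strand for NDUFA7, chr19:1383657-1383956 on the plus strand for NDUFS7, chr4:674227-674526 on the minus strand for ATP5ME, and chr2:206159395-206159694 on the minus strand for the first of 2 windows of NDUFS1.
NDUFB10: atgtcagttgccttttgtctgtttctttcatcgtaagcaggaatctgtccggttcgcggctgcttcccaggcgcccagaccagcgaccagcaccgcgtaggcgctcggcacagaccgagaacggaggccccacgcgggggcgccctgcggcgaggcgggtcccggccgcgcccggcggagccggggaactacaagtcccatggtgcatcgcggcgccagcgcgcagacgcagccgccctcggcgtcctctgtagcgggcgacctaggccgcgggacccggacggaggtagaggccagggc
NDUFA7: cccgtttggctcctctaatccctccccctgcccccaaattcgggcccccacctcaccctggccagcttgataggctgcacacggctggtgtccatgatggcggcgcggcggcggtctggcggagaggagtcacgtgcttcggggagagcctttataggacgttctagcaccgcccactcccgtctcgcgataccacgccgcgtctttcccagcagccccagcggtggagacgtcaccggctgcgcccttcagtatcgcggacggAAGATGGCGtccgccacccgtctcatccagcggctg
NDUFS7: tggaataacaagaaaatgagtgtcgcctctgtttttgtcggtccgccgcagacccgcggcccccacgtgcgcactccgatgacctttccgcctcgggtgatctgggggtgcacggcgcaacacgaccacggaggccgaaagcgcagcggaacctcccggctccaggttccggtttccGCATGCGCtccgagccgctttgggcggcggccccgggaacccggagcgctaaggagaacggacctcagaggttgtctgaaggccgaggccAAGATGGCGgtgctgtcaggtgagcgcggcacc
ATP5ME: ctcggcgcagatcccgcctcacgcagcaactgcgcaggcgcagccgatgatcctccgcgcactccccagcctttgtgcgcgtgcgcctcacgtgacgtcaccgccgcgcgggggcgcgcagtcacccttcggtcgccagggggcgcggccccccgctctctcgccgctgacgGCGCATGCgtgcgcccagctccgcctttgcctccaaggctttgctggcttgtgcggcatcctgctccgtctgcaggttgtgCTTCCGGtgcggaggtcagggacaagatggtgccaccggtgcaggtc
NDUFS1: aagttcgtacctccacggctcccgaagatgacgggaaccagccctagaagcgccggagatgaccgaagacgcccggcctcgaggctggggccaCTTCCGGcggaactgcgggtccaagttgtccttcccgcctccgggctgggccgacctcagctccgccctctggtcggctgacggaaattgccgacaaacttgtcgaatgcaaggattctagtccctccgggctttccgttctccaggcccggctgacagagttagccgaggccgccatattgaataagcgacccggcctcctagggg

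Of the 76 subunit genes that passed the signal filter described below, 66 had a promoter window in the RefSeq table, with 79 windows in all. The NRF1 word was found in 19.0% of these windows, against 3.05% of all 35116 windows in the table. The ETS word was found in 25.3% of the subunit windows, against 10.3% of all windows. The YY1 word was found in 11.4% of the subunit windows, against 1.75% of all windows, and in 0 subunit windows did 2 of the words overlap. The window of NDUFB10, which had the lowest ratio among subunits with a mean signal of 2000 or more, held none of the 3 words, nor did the window of NDUFB6. The window of NDUFS7 held an NRF1 and a YY1 word, that of NDUFA7 a YY1 word, that of ATP5ME an NRF1 and an ETS word, and the first window of NDUFS1 an ETS word. A word is a match of letters and is not evidence of binding.

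Expression was read as MAS5 signal, a linear brightness per probe set, and log2 ratios put siIFITM1 over siLuc throughout. Where several probe sets read a gene, its brightest one by mean log2 signal stands for it. A gene passed the filter when that mean reached the median of the array's probe sets other than controls, equal to a signal of 57.4. Probe sets whose mean reached the 75th percentile, 393, are called bright. Levels of different probe sets are not comparable, since each has its own binding strength. The targeted gene, IFITM1, had a signal of 237 with siIFITM1 and 640 with siLuc, which is 37.1% of the baseline, at a probe set whose ID marks probes shared between transcripts. Of 11 epithelial markers 9 passed the filter, while CDX1 and CDX2 did not. EPCAM had 17180 with siIFITM1 and 17339 with siLuc, and 2 of the 9 were at least 1.2-fold higher, KRT20 (22374 with siIFITM1 and 17466 with siLuc, log2 ratio 0.36) and CDH1 (13183 with siIFITM1 and 10928 with siLuc, 0.27). Of 6 leukocyte markers 4 passed, and the signals of all 6 summed to 21309 with siIFITM1 and 25025 with siLuc, mostly LYZ. The 4 that passed were all below 0, 3 of them at least 1.2-fold lower, with a median of -0.56. Of 6 fibroblast markers 3 passed, with a median of -0.49, and the signals of all 6 summed to 728 with siIFITM1 and 606 with siLuc. LUM was higher (386 with siIFITM1 and 132 with siLuc), and COL1A1 (-0.49) and DCN (-0.51) were lower. Of 4 endothelial markers 2 passed, both below 0, and the signals of all 4 summed to 234 with siIFITM1 and 260 with siLuc. PTPRC, CD3E, COL1A2, COL3A1, PDGFRB, VWF and CDH5 did not pass, and the part of such markers in the ratios was not tested. The 18 hybridisation control probe sets had a median log2 ratio of -0.07 and ranged from -0.13 to 0.05.

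Respiratory chain transcripts were close to the same level on both arrays. Of the 76 genes that passed the filter, 57 were within 1.1-fold (37.7% of all genes past the filter were). In either direction 0 of the 76 were 2-fold apart. Of all 12225 genes past the filter, 2.01% were 2-fold lower and 1.01% were 2-fold higher. Among the 3168 genes with a mean signal of 2000 or more, 0 were 2-fold lower and 0 were 2-fold higher. That class holds 72 of the 76 subunits, so the 0 is not particular to the respiratory chain. The median log2 ratio of the subunits was -0.06, and that of all genes past the filter was -0.02. A log2 ratio below 0 was found for 53 of the 76 subunits (69.7%), against 52.6% of all genes past the filter. With median centring of the ratios 45 of the 76 (59.2%) were below 0, against 47.7% of all genes past the filter. With quantile normalization of the arrays it was also 45 of the 76, against 50.8% of all genes.

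**Figure D1:**
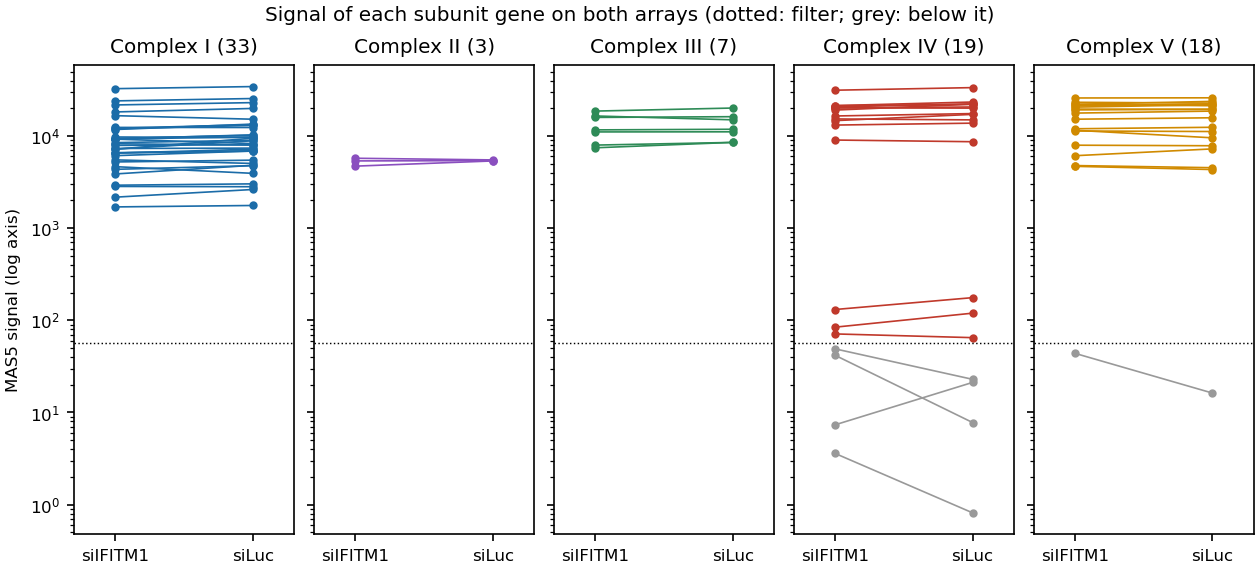
MAS5 signal (log axis) of each of the 80 subunit genes of complexes I to V on the siIFITM1 array (left) and the siLuc array (right), 1 line per gene, with the number of genes in each panel's title. Lines are nearly flat for genes with a signal of 2000 or more, and the dim genes below the dotted filter line (57.4) belong to complexes IV and V.

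A fold of 1.2 (a log2 ratio of 0.26) was used to set single genes apart. At this line 6 of the 76 subunits (7.89%) were lower with siIFITM1, where 21.5% of all genes past the filter were, and 1 (1.32%) was higher, where 16.8% of all genes were. With median centring these counts were 5 and 2. Most subunits have strong signals, and genes with strong signals vary less between the arrays, so genes with a mean signal of 2000 or more (strong-signal genes) are the closer background. Of 72 such subunits 4 (5.56%) were at least 1.2-fold lower, where 8.05% of 3168 genes of that brightness were, and 1 (1.39%) was higher, where 9.47% were. The subunits' shares past the line were below those of the strong-signal genes in both directions. Below 0 were 50 of the 72 (69.4%) and above 0 were 22, where 49.5% of the strong-signal genes were below 0 and 50.5% above.

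The log2 ratios of the 72 strong-signal subunits had an SD of 0.120, against 0.207 over the 3168 strong-signal genes. Within 1.1-fold lay 76.4% of these subunits and 54.5% of these genes. The subunits also had stronger signals than that background, with a median signal of 11511 against 4255. For comparison, probe sets that read one and the same subunit gene differed with a pooled SD of 0.111 in log2 ratio (17 genes with 41 probe sets of signal 2000 or more). Differences between subunits were thus about as large as differences between readings of 1 subunit.

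**Figure D2:**
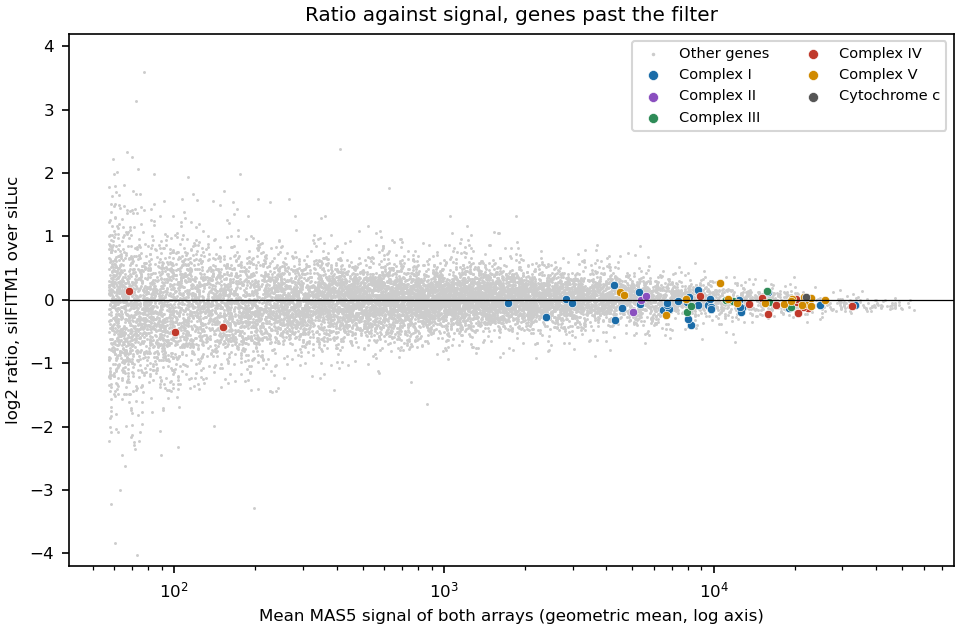
Log2 ratio of siIFITM1 over siLuc against the mean signal of both arrays (log axis) for the 12225 genes past the filter, with subunit genes coloured by complex and other genes in grey. Most subunit genes lie at the bright end, and all lie within 0.40 of 0 apart from COX4I2 (-0.43) and COX6A2 (-0.50). COX4I2, COX6A2 and COX6B2 (0.13) are dim.

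Complex I, which oxidises NADH, held every strong-signal subunit that was at least 1.2-fold lower. Of its 33 genes 25 (75.8%) were below 0, against 52.6% of all genes past the filter and 49.5% of the strong-signal genes. The median log2 ratio was -0.08, and it kept its sign with median centring (-0.04), quantile normalization (-0.07) and subtraction of a loess trend (-0.06). At least 1.2-fold lower were 4 of the 33 (12.1%), where 21.5% of all genes past the filter were. Of its 32 strong-signal genes these 4 made up 12.5%, where 8.05% of all strong-signal genes were lower. In complex I 0 were 1.2-fold higher, where 16.8% of all genes past the filter and 9.47% of the strong-signal genes were. NDUFB10, an accessory subunit of the distal membrane arm, had a signal of 7198 with siIFITM1 and 9481 with siLuc, a log2 ratio of -0.40 (1.32-fold lower). Its second probe set had 2225 with siIFITM1 and 2701 with siLuc (-0.28). NDUFB10 was the subunit whose bright probe sets were all past the 1.2-fold line, the only one among the 23 subunits with several bright probe sets. Both of its probe sets have IDs that mark shared probes, so no reading of NDUFB10 is free of them.

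The other 3 rested on 1 bright probe set each. NDUFA7, an accessory subunit of the matrix arm, had 3878 with siIFITM1 and 4813 with siLuc (log2 ratio -0.31). NDUFB6, of the distal membrane arm, had 7220 with siIFITM1 and 8890 with siLuc (-0.30). NDUFS7, a core subunit that carries the iron-sulfur cluster next to the ubiquinone site, had 2171 with siIFITM1 and 2630 with siLuc (-0.28). Each of these genes had a second probe set below the filter, so none has a second reading. The bright probe sets of NDUFB6 and NDUFS7 have IDs that mark shared probes, and that of NDUFA7 does not. With median centring NDUFS7 came to -0.24, inside the 1.2-fold line, while NDUFB10, NDUFA7 and NDUFB6 stayed past it.

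The matrix arm takes up electrons from NADH and leads them to ubiquinone. Its NDUFS and NDUFV genes had ratios of both signs. They are not the whole arm, and NDUFA7 (-0.31), for 1, is counted with the NDUFA genes. NDUFS1, the largest core subunit, had 4652 with siIFITM1 and 3935 with siLuc, a log2 ratio of 0.24 that is the highest in complex I and just inside the 1.2-fold line. Its next brightest probe set had 969 with siIFITM1 and 944 with siLuc (0.04). The 2 dimmer ones past the filter were also above 0, one at 0.09 and one with 111 on the siIFITM1 array and 51.4 on the siLuc array. NDUFV1, which binds the flavin that accepts electrons from NADH, had a log2 ratio of -0.14 (9342 with siIFITM1 and 10292 with siLuc). Its partner NDUFV2 was at 0.00 (12404 with siIFITM1 and 12374 with siLuc), and the core subunit NDUFS3 was at -0.01 (7330 with siIFITM1 and 7397 with siLuc). The accessory subunits NDUFS4 and NDUFS6 were at 0.13 and -0.13. Over the 8 NDUFS and NDUFV genes 5 were below 0, and the median of the 5 NDUFS genes was -0.01, which became 0.02 with median centring.

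The NDUFB genes encode the distal part of the membrane arm. Of 11 measured, 9 were below 0, with a median of -0.08 that stayed below 0 with median centring, quantile normalization and loess subtraction. Besides NDUFB10 and NDUFB6, NDUFB2 had 11774 with siIFITM1 and 13478 with siLuc (-0.20), and NDUFB8 was at -0.08 with a second bright probe set at -0.17. NDUFB9 had 32672 with siIFITM1 and 34425 with siLuc (-0.08). NDUFB3 (0.05) and NDUFB1 (0.02) were above 0.

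Of 13 NDUFA genes 10 were below 0, with a median of -0.08 (-0.04 with median centring). NDUFA11, a membrane arm subunit, had 2 bright probe sets at -0.17 and -0.18. NDUFA13, also known as GRIM-19 and required for complex I assembly, was at 0.16 (9255 with siIFITM1 and 8276 with siLuc), and the small membrane subunit NDUFA1 was at 0.13 (16637 with siIFITM1 and 15222 with siLuc). NDUFAB1, the mitochondrial acyl carrier protein, was at -0.09 (24073 with siIFITM1 and 25534 with siLuc). The brightest probe set of NDUFA10 was at -0.06, whereas its 3 dim probe sets past the filter were at 0.15 to 0.88, the widest gap within a complex I gene apart from NDUFS1. NDUFC1, the 1 NDUFC gene measured alone, was at -0.12.

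**Figure D3:**
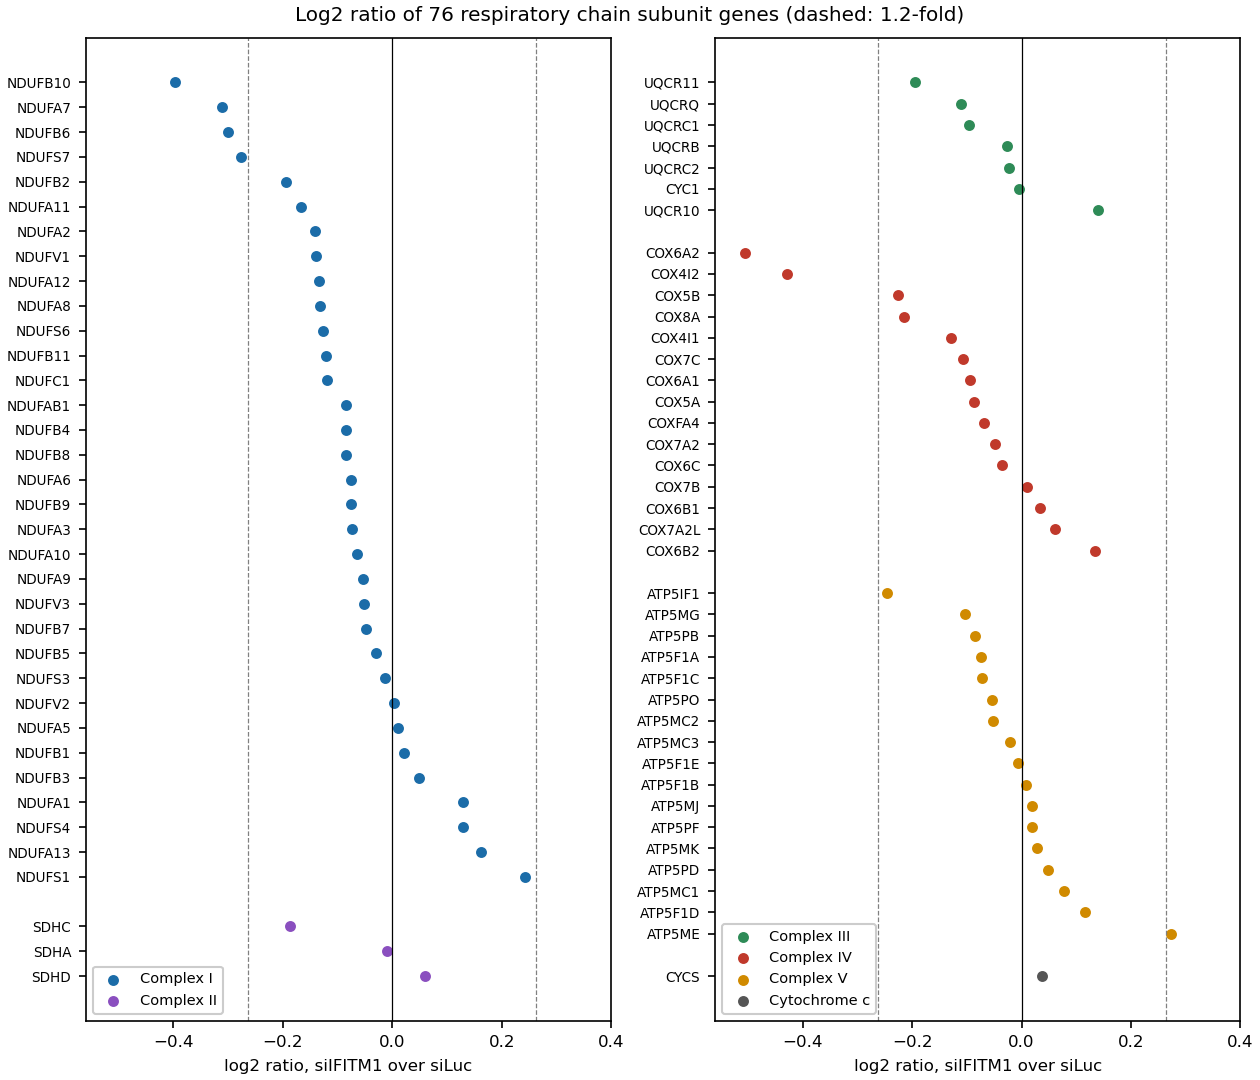
Log2 ratio of siIFITM1 over siLuc for each of the 76 subunit genes past the filter, 1 point per gene, grouped by complex and ordered by ratio, with dashed lines at 1.2-fold. Points past the left line are NDUFB10, NDUFA7, NDUFB6, NDUFS7, COX6A2 and COX4I2, and the point past the right line is ATP5ME.

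Complex II, succinate dehydrogenase, is also an enzyme of the tricarboxylic acid cycle. SDHA, its flavoprotein, had 5371 with siIFITM1 and 5407 with siLuc (log2 ratio -0.01). SDHD, a membrane anchor subunit, had 5739 with siIFITM1 and 5507 with siLuc (0.06). SDHC, the other anchor, had 4714 with siIFITM1 and 5367 with siLuc (-0.19) at its brightest probe set. The 5 bright probe sets of SDHC ran from -0.36 (2570 with siIFITM1 and 3289 with siLuc) to 0.39 (582 with siIFITM1 and 445 with siLuc). Of these, the 4 below 0 have IDs that mark shared probes and the one above 0 does not. A dimmer probe set without shared probes was at -0.20 (331 with siIFITM1 and 382 with siLuc), so the direction for SDHC depends on the probe set. The median of the 3 genes was -0.01, and 0.02 with median centring.

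Complex III passes electrons from ubiquinol to cytochrome c. Of its 7 genes 6 were below 0, with a median of -0.03 that was 0.01 with median centring, when 3 of the 7 were below 0. CYC1, the cytochrome c1 heme protein, had 11081 with siIFITM1 and 11111 with siLuc (99.7% of the siLuc signal). The core proteins UQCRC1 and UQCRC2 were at -0.10 and -0.02. UQCR11, a small accessory subunit, was the lowest at -0.20 (7454 with siIFITM1 and 8533 with siLuc), with a second bright probe set at -0.10. UQCR10, another small subunit, was the highest at 0.14 (16510 with siIFITM1 and 14995 with siLuc), but its second bright probe set was at -0.38 (832 with siIFITM1 and 1084 with siLuc). UQCRQ was at -0.11 and UQCRB at -0.03. Cytochrome c itself, encoded by CYCS, had 22229 with siIFITM1 and 21658 with siLuc (0.04).

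Complex IV, cytochrome c oxidase, contains subunits with alternative isoforms that are used in different tissues. Of 15 genes past the filter 11 were below 0, with a median log2 ratio of -0.09 that was -0.05 with median centring and with quantile normalization. Quantile normalization left 8 of the 15 below 0. The 12 strong-signal genes ran from -0.23 to 0.06, and 0 of them were 1.2-fold apart. COX5B had 14699 with siIFITM1 and 17184 with siLuc (-0.23), and all 4 of its bright probe sets were below 0, from -0.29 to -0.10. COX8A had 19125 with siIFITM1 and 22198 with siLuc (-0.22) at its 1 probe set. COX4I1, the common form of subunit 4, had 21386 with siIFITM1 and 23397 with siLuc (-0.13), with a second bright probe set at -0.10 and dim ones at 0.17 and -0.81. COX6A1 was at -0.09 (31431 with siIFITM1 and 33537 with siLuc), COX7A2 at -0.05 (21359 with siIFITM1 and 22102 with siLuc) and COX6B1 at 0.03 (15329 with siIFITM1 and 14973 with siLuc). COXFA4 was at -0.07, and COX7A2L, a factor that joins complexes III and IV in supercomplexes, was at 0.06 (9048 with siIFITM1 and 8675 with siLuc).

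The isoforms of restricted tissue use were dim or below the filter. COX4I2, an oxygen-responsive form best known from lung, had 131 with siIFITM1 and 176 with siLuc. COX6A2, the heart and skeletal muscle form, had 84.3 with siIFITM1 and 120 with siLuc, and COX6B2, a testis form, had 71.2 with siIFITM1 and 64.9 with siLuc. Their log2 ratios were -0.43, -0.50 and 0.13. Probe sets of 1 subunit gene between the filter and the 75th percentile had a pooled SD of 0.524 in log2 ratio (4 genes, 9 probe sets), which is larger than each of these ratios. The muscle form COX7A1 had 41.8 with siIFITM1 and 7.78 with siLuc, the testis forms COX7B2 and COX8C had 7.35 and 3.59 with siIFITM1 against 21.2 and 0.814 with siLuc, and COXFA4L2, a form induced by hypoxia, had 49.0 with siIFITM1 and 22.9 with siLuc. All 4 were below the filter on both arrays, and no ratio is given for them.

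Complex V had no common direction. Of 17 genes past the filter 9 were below 0 and 8 above, with a median log2 ratio of -0.01 that was 0.03 with median centring and with quantile normalization. The catalytic head was close to 0, with ATP5F1A (alpha) at -0.07 (21235 with siIFITM1 and 22345 with siLuc), ATP5F1B (beta) at 0.01 (19612 with siIFITM1 and 19501 with siLuc) and ATP5F1C (gamma) at -0.07 (17740 with siIFITM1 and 18647 with siLuc). ATP5F1D was at 0.12, and ATP5F1E, the brightest of the complex, was at -0.01 (25887 with siIFITM1 and 25992 with siLuc). A second, dim probe set of ATP5F1E had 75.9 with siIFITM1 and 152 with siLuc, and the dim probe set of ATP5F1C was at 0.55. The genes ATP5MC1, ATP5MC2 and ATP5MC3, which encode the same mature c-ring protein, were at 0.08, -0.05 and -0.02.

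ATP5ME, the e subunit of the membrane part, was the highest of all subunits past the filter, with 11551 on the siIFITM1 array and 9563 on the siLuc array (log2 ratio 0.27, 1.21-fold higher). Its second bright probe set had 6355 with siIFITM1 and 6858 with siLuc (-0.11), and both have IDs that mark shared probes, so the 2 readings of ATP5ME differ in direction. ATP5PO, the stalk protein OSCP, had a similar gap, at -0.05 (11991 with siIFITM1 and 12448 with siLuc) for the brightest and 0.37 (2648 with siIFITM1 and 2043 with siLuc) for the next. ATP5IF1, the inhibitor that stops the enzyme from hydrolysing ATP, had the lowest ratio in complex V, -0.25 (6117 with siIFITM1 and 7253 with siLuc). Its other bright probe sets were at -0.22 and -0.07, so all 3 were below 0. ATP5MF was below the filter at the probe set that names it alone (43.8 with siIFITM1 and 16.2 with siLuc). A probe set that names ATP5MF with ARMC2-AS1 had 20989 with siIFITM1 and 21120 with siLuc.

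Readings of 1 gene by several probe sets bound what can be said of single subunits. Among the 23 subunits with several bright probe sets, 9 had all of them below 0, 3 had all above 0 and 11 had both signs. The 9 were NDUFA11, NDUFB10, NDUFB2, NDUFB8, UQCR11, UQCRC2, COX4I1, COX5B and ATP5IF1, and the 3 were NDUFS1, ATP5F1D and ATP5MJ. SDHC and UQCR10 spanned more than 0.5. Of the 76 subunits 42 rested on 1 probe set past the filter. With 1 array per siRNA, a fall in subunit RNA cannot be told apart from variation between arrays. Were there such a fall, a lower share of cells rich in mitochondria and less RNA per cell could not be told apart in bulk RNA.

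**Figure D4:**
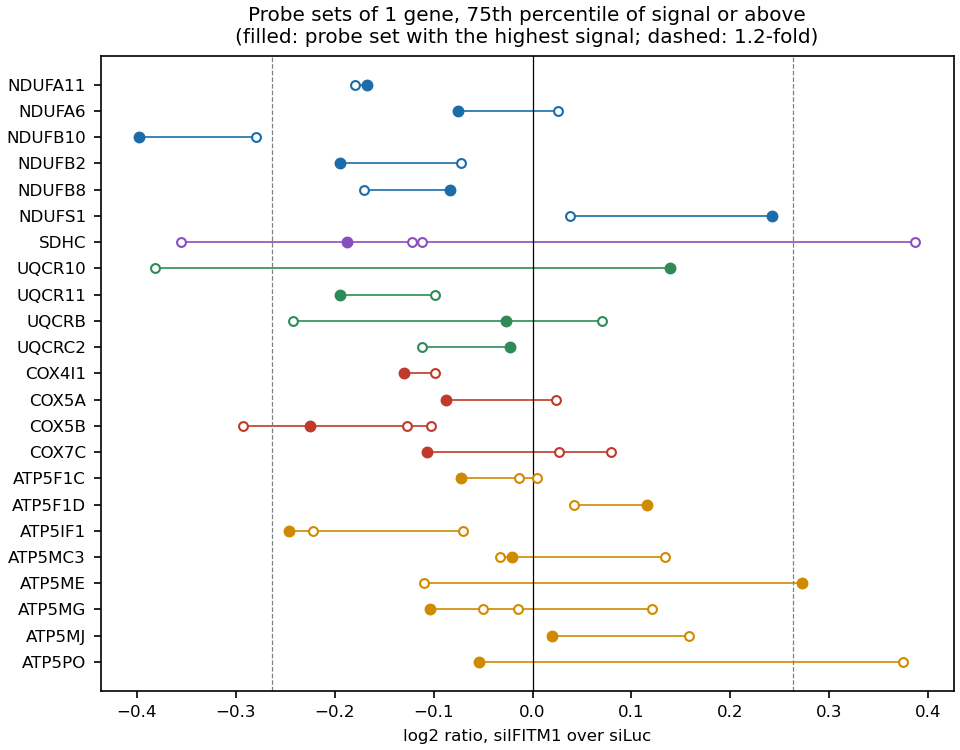
Log2 ratio of siIFITM1 over siLuc at every bright probe set of the 23 subunit genes that have several, coloured by complex as in the plot of ratios by gene, with the brightest probe set filled and dashed lines at 1.2-fold. NDUFB10 lies past the left line at both probe sets, while SDHC, UQCR10 and ATP5ME cross 0.

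Ratios were also set beside the promoter words, with no test. The 14 subunits with an NRF1 word in a window had a median log2 ratio of -0.07, and the 52 without it also had -0.07. The 19 subunits with an ETS word had a median of -0.01, against -0.07 for the 47 without it, and 10 of the 19 were below 0 against 35 of the 47. The ETS word was rarer among subunits of complex I (median -0.08) than among those of complex V (median -0.01). This split was not separated from complex. The 8 subunits with a YY1 word had a median of -0.08, against -0.07 for the 58 without it. The mRNAs of the factors themselves, apart from GABPB2, had ratios above 0 at their brightest probe sets. NRF1 was at 0.08 (449 with siIFITM1 and 424 with siLuc), with other probe sets past the filter at 0.02 and 0.52. YY1 was at 0.12 (8214 with siIFITM1 and 7573 with siLuc). The other probe sets of YY1 past the filter ran from -0.16 to 0.93. Of the GABP subunits, GABPA was at 0.23 (410 with siIFITM1 and 349 with siLuc), with a dimmer probe set at 0.00. GABPB1 was past the 1.2-fold line at 0.35 (1990 with siIFITM1 and 1558 with siLuc), with a second bright probe set at 0.16. GABPB2 was at -0.03 (307 with siIFITM1 and 313 with siLuc).

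Other mitochondrial genes were taken from lists for comparison. Of 56 assembly factors past the filter, 11 (19.6%) were at least 1.2-fold lower, near the 21.5% of all genes past the filter, and 2 (3.57%) were higher, where 16.8% of all genes were. Their median was -0.06. NDUFAF4, a complex I assembly factor, was the highest, with 2939 on the siIFITM1 array and 2028 on the siLuc array (log2 ratio 0.54), and its dimmer probe set had 0.49. FOXRED1, needed for the same complex, was at 0.47 (1075 with siIFITM1 and 775 with siLuc). Other complex I assembly factors were lower, among them DMAC1 at -0.40 (4741 with siIFITM1 and 6258 with siLuc), with a dim probe set at 0.30. NUBPL was at -0.41 (380 with siIFITM1 and 506 with siLuc), so factors for complex I lay on both sides of 0. COA5, a complex IV assembly factor, was the lowest at -0.50 (1098 with siIFITM1 and 1556 with siLuc), with a second probe set at -0.17. Of 9 enzymes that also feed electrons to the chain, 2 (22.2%) were lower and 0 higher, beside the same 21.5% and 16.8% of all genes. SQOR, which passes electrons from sulfide to ubiquinone, had 2304 with siIFITM1 and 3695 with siLuc (-0.68), further from 0 than any subunit past the filter. ETFB, a chain of the flavoprotein that carries electrons from fatty acid oxidation, had 5826 with siIFITM1 and 7567 with siLuc (-0.38), and GPD2, the glycerol phosphate dehydrogenase, was the highest at 0.16.

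Genes of mitochondrial DNA upkeep and transcription lay above 0 in 14 of 17 cases, with a median of 0.15 (0.15 to 0.18 with median centring, quantile normalization and loess subtraction), where 47.4% of all genes past the filter were above 0. Of the 17, 3 (17.6%) were at least 1.2-fold higher, near the 16.8% of all genes past the filter, and 0 were lower, where 21.5% of all genes were. TFAM, which packages and transcribes mitochondrial DNA, had 3458 with siIFITM1 and 3010 with siLuc (0.20), MTERF1 was the highest at 0.35 (467 with siIFITM1 and 366 with siLuc) and MTERF2 the lowest at -0.26 (484 with siIFITM1 and 579 with siLuc), with a second bright probe set at -0.08. Of 11 regulators of mitochondrial biogenesis 3 (27.3%) were at least 1.2-fold higher and 0 lower, with a median of 0.08, beside those same shares of all genes. The coactivator gene PPARGC1B was the highest at 0.69, from the dim signals of 212 with siIFITM1 and 131 with siLuc, and PPARA the lowest at -0.22 (415 with siIFITM1 and 484 with siLuc). A second bright probe set of PPARA had 545 with siIFITM1 and 329 with siLuc (0.73), so its direction turns with the probe set. PPARGC1A was below the filter on both arrays.

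The remaining lists are to be read against the same 21.5% lower and 16.8% higher over all genes past the filter. Over the strong-signal genes the shares were 8.05% lower and 9.47% higher. Import genes (9.52% in each direction) and the lower share of exchange genes (10%) lay near these. The tricarboxylic acid cycle and ribosomal lists were below both. Of 16 genes of the tricarboxylic acid cycle 1 was lower, IDH2 at -0.28 (2441 with siIFITM1 and 2965 with siLuc) with a second bright probe set at -0.52, and 0 were higher, with PDHX highest at 0.24 and a median of 0.04. Of 75 mitochondrial ribosomal protein genes 3 were lower and 2 higher, from MRPL11 at -0.34 to MRPL35 at 0.39 (0.03 at its second bright probe set), with a median of -0.01 (0.02 with median centring). Of 21 import genes 2 were lower and 2 higher, from TIMM44 at -0.42 to TIMM17A at 0.42 (8312 with siIFITM1 and 6191 with siLuc), with a median of 0.06. The second bright probe set of TIMM44 had the opposite sign, at 0.30 (662 with siIFITM1 and 538 with siLuc), and that of TIMM17A was at 0.49. Of 10 exchange carriers and channels 1 was lower, the dim SLC25A27 at -0.38, and 0 were higher, with SLC25A14 highest at 0.17 and a median of -0.01 (0.02 with median centring). Of 12 cristae genes 0 were lower and 1 was higher, APOO at 0.53 (1810 with siIFITM1 and 1254 with siLuc), with MICOS13 lowest at -0.19 and a median of -0.01 (0.02 with median centring and with quantile normalization).

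**Figure D5:**
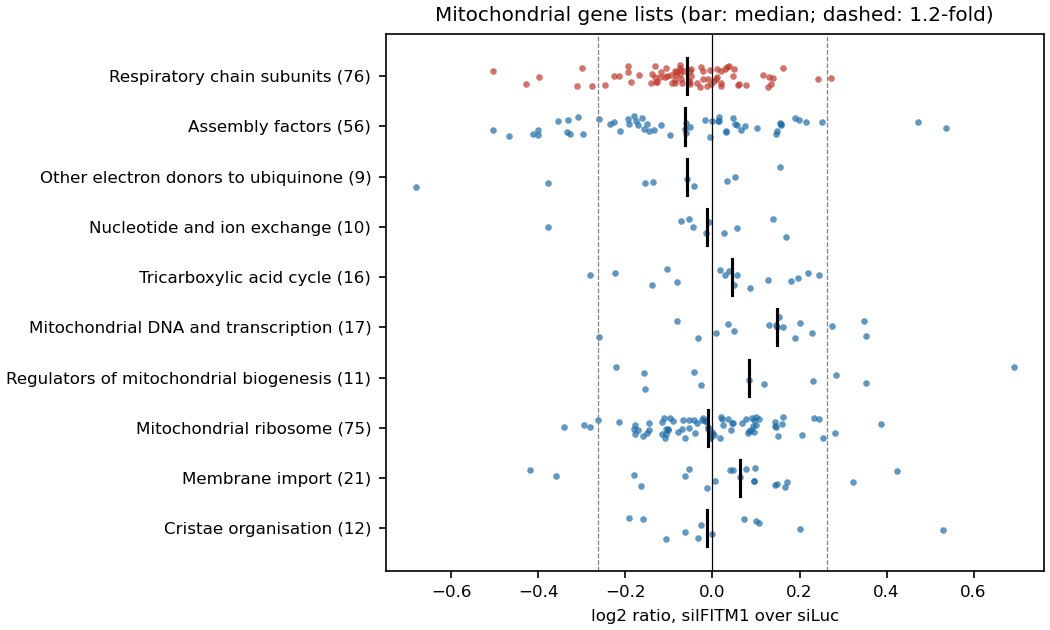
Log2 ratio of siIFITM1 over siLuc for the 76 subunit genes (red) and for 9 lists of other mitochondrial genes (blue), 1 point per gene past the filter, with a bar at each median and dashed lines at 1.2-fold. The list of mitochondrial DNA and transcription has the highest median, 0.15, and SQOR at -0.68 is the point furthest to the left.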

How the data were processed

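Total RNA was amplified to biotin-labelled cRNA per the labels' protocols, and each sample was read on 1 single-colour Affymetrix array. The deposited values are intensities, MAS5 signals on a linear scale per the submitters' processing notes; no version of MAS5 is named there. With 2% of probe sets dropped from either tail, the mean signal was 500.1 for both arrays, so their scaling is shared. Detection calls did not enter, and precision is limited by there being 2 arrays.

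Of 54613 probe sets that are not controls, the probe table names 1 gene for 41091, several for 1801 and none for 11721. Current symbols came from RefSeq of GRCh38.p14 by Entrez identifier, with 41037 probe sets matched. Signals were taken to log2 as deposited. A gene's probe set with the highest mean log2 signal represented it, and 12225 of 19777 genes passed the filter. With 1 array per siRNA, values, counts past 1.2-fold and medians were given with no test. The calculation was tested on simulated arrays. All members may be named; the text names in each complex the member with the brightest signal, the extremes of ratio, the members past 1.2-fold, the catalytic and redox subunits and tissue isoforms, those below the filter and those whose probe sets differ by more than 0.5, and in each other mitochondrial list the extremes. Other members and genes (NRF1, GABPA, GABPB1, GABPB2, YY1, TFAM, ETFB, FOXRED1, DMAC1, NUBPL, PPARGC1A and the cell type markers) were named after their values were seen. The members, lists, thresholds and alternatives were chosen with earlier results of these data known, and the background of genes with a signal of 2000 or more and the promoter words were added later. Alternatives were median centring, quantile normalization, subtraction of a loess trend (span 0.3), the mean over probe sets, a pseudocount of 32, a higher filter (75th percentile) or none, the addition of probe sets naming several genes (chosen after seeing the data), leaving out shared-probe sets (_x_at and _s_at), and other fold lines. Python 3.11.15, numpy 2.4.6, pandas 2.3.3, statsmodels 0.14.6 and matplotlib 3.10.9 were used.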

Additional observations from a re-analysis of the deposited data

Results flagged for a closer look

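A signal outside the main measurement was seen at 1 probe set that names several genes, NDUFS8 among them. NDUFS8 is a core iron-sulfur subunit of complex I, and all 3 of its probe sets also name microRNA genes, so they were left out. This probe set had 399 with siIFITM1 and 315 with siLuc, a log2 ratio of 0.34. The other probe sets naming NDUFS8 were brighter and lower, with 8146 on the siIFITM1 array and 9415 on the siLuc array (-0.21) and with 4155 on the siIFITM1 array and 4991 on the siLuc array (-0.26).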

How the results depend on the processing

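The median log2 ratio of the subunits stayed below 0 under every alternative run, from -0.06 to -0.03, as did that of complex I, from -0.08 to -0.04. The complex II median was above 0 with median centring (0.02), without probe sets that share probes (0.22, from 2 genes) and with probe sets naming several genes added (0.02). The complex III median, -0.03, was 0.01 with median centring, -0.11 with the mean over probe sets and -0.11 without shared probes, and the complex IV median was 0.01 without shared probes. The complex V median crossed 0 under 6 alternatives and lay between -0.01 and 0.03. Without shared probes 33 of 57 subunits were below 0. Counts past the 1.2-fold line, 6 lower and 1 higher, were 11 and 3 with the mean over probe sets, when NDUFA7 (-1.15) and NDUFB6 (-1.29) took in probe sets below the filter. The higher count was 2 with median centring, without shared probes and with probe sets naming several genes added, and 5 with no filter, where 5 dim subunits entered. At 1.1-fold 15 were lower and 4 higher, and at 1.5-fold and 2-fold 0 were lower and 0 higher. With 1 array per siRNA no replicate could be left out. No subunit past the 1.2-fold line changed sign under an alternative that gave it a value. Leaving out shared-probe sets gave no value for NDUFB10, NDUFB6, NDUFS7 and ATP5ME. The 6 subunits that were lower in that setting are therefore not the same 6. Scaling moved the median of all genes past the filter by at most 0.03. Dim signals limit COX4I2, COX6A2 and COX6B2.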

Other observations

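Probe sets that name a subunit together with another gene entered no count above. NDUFC2, read together with the readthrough transcript NDUFC2-KCTD14, had 12893 on the siIFITM1 array and 14347 on the siLuc array (log2 ratio -0.15) and, at a dimmer probe set, 642 with siIFITM1 and 796 with siLuc (-0.31). The probe set shared by UQCRH and UQCRHL, the hinge protein of complex III and its close copy, had 22890 with siIFITM1 and 21158 with siLuc (0.11). NDUFS5 was read with the ribosomal protein gene RPL10, with 25285 on the siIFITM1 array and 24011 on the siLuc array (0.07). COXFA4L3, a relative of COXFA4 that lies outside the symbol rule, was dim, with 201 on the siIFITM1 array and 164 on the siLuc array (0.29).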
